A study of Mus musculus with 6 samples.

Results

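The 42 genes described here are markers of macrophages and related myeloid cells. They were read in RNA of pancreatic stellate cells (PSCs) that had been cocultured with tumor organoids. The genes were picked by identifier, through the GENCODE M21 annotation of GRCm38, from the 55426 features of the count table, and all 42 were present in it. By known role they were set in 7 groups. These held 8 core leukocyte genes, 10 genes of mononuclear phagocyte identity, 4 markers of resident macrophages and 8 phagocytic and Fc receptors. The others were the 3 chains of complement C1q, 3 lipid-associated genes and 6 activation and effector genes. PSCs are fibroblast precursors of the pancreas. Primary PSC lines were obtained from wild-type adult C57/BL6 mice by enzymatic digestion and a density gradient and used at low passage. They were kept in Matrigel in a transwell insert above organoids of mT3, a mouse pancreatic ductal adenocarcinoma (PDAC) line. RNA of the PSCs was sequenced from 3 such cocultures at 21% O2 (normoxia) and 3 at 1% O2 (hypoxia), all after 48 h. Oxygen is the only difference between groups that the labels give. The study asked how hypoxia acts on the fibroblasts. The labels call every sample PSCs cocultured with mT3, and neither they nor the methods name a sort of the PSC lines by surface markers or a macrophage culture beside them.

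Macrophages are tissue phagocytes that live on signals through the CSF1 receptor and depend on the transcription factor PU.1 for their identity. They take up dead cells, opsonized particles and modified lipids through scavenger, Fc and phosphatidylserine receptors, digest them in lysosomes, and secrete lysozyme and the C1q that starts the classical complement pathway. In the pancreas they lie among stellate cells and acini, and they are abundant in the stroma of PDAC.

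Totals were 24749601 to 25914892 counts in normoxic samples and 25847719 to 31925054 in hypoxic samples. At this depth 3 counts, the smallest amount taken here as above none, correspond to 0.094 to 0.121 CPM (counts scaled to equal library size). Below, library sizes are those of the TMM method. The 3 values of a condition stand in the order of replicates 1, 2 and 3. The labelled cell type was plain in its own markers: 13 of 13 fibroblast and stellate cell genes were measured, with summed levels of 29688 to 36877 CPM at 21% O2 and 31605 to 36653 CPM at 1% O2. Of other immune cells, 5 of 12 T and NK cell, 2 of 8 B cell, 5 of 10 neutrophil, 3 of 8 mast cell and 2 of 8 dendritic cell markers had 0 counts in all 6 samples, and no such list summed to more than 10.6 CPM in a sample. The other markers of these lists had counts in some samples. Among them were Zbtb46 of the dendritic cell list (6.05 to 9.79 CPM), Mmp8 of the neutrophil list (2.43 to 6.29 CPM) and Gata2 of the mast cell list (2.28 to 4.08 CPM). Epithelial markers summed to 0.493 to 1.62 CPM at 21% O2 and to 21.0 to 24.1 CPM at 1% O2, there nearly all Krt19. Endothelial markers summed to 20.1 to 27.0 and 32.6 to 44.1 CPM. The part of these 2 lists in the results below was not tested. The sources used here do not say whether the 3 samples of a condition came from separate PSC lines, so p-values measure only the spread between these samples, which may be technical.

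The letters of some of these genes' promoters are shown first, because PU.1, the product of the member Spi1, is known to act on many macrophage genes through the sequence GAGGAA. RefSeq promoter windows on GRCm38.p6, taken here as the 250 bases before each annotated start, were given for 33 of the 42 members, in 39 windows. GAGGAA, on either strand, was present in 21 of the 39 windows (53.8%) and in 23.3% of all 32851 windows of this length. The hypoxia response core, ACGTG or GCGTG on either strand, was present in 5 of the 39 (12.8%) and in 38.6% of all windows. A match is a string of letters in a window and not a bound site. Shown are 4 windows that hold the letters. Those of C1qb (chr4:136886201-136886450, minus strand) and Fcgr1 (chr3:96293970-96294219, minus strand) belong to members that fell at 1% O2. Those of Itgam (chr7:128062390-128062639, plus strand) and Cd53 (chr3:106790150-106790399, minus strand) belong to members that did not pass the test. Each reads 5′ to 3′ in the direction of its gene and overlaps no annotated exon. Capitals mark GAGGAA or its reverse complement TTCCTC, whose first base lies 30 bases before the start in C1qb, 55 in Fcgr1, 84 and 15 in Itgam and 39 in Cd53.
C1qb: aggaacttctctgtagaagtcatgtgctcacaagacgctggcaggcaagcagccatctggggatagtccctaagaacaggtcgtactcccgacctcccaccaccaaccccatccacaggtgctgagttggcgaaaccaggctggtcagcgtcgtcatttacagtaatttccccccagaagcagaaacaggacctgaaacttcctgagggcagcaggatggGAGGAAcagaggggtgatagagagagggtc
Fcgr1: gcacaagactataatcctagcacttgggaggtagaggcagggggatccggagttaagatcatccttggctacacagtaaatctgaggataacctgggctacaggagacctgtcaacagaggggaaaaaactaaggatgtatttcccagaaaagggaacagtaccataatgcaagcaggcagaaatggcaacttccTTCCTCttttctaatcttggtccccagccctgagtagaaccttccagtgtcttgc
Itgam: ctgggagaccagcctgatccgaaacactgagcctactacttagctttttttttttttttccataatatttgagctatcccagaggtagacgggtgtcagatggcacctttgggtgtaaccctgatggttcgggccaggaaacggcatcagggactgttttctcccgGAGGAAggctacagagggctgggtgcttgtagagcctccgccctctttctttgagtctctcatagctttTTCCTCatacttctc
Cd53: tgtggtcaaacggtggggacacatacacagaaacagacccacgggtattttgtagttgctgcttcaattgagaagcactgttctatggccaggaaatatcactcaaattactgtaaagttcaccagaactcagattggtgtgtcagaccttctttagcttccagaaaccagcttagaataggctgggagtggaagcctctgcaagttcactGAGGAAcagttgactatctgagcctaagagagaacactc

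Most macrophage markers were present and lower at 1% O2. Counts of 39 members were high enough for the test, which kept 16207 genes, and 26 of the 39 were called lower. A call means more than a 1.5-fold difference with an adjusted p below 0.05 in the quasi-likelihood test of edgeR. Over all genes tested, 34.2% were called, 15.3% lower and 18.9% higher. By edgeR 0 members were called higher, and by DESeq2 and limma-voom 0 as well. At an unadjusted p under 0.05, 1 member, Axl, was higher, by less than 1.5-fold. The median log2 fold change was -0.88 over the 39 members and -0.004 over all genes tested, and 35 of the 39 had a value below 0. In 20 of the 39 every hypoxic sample lay below every normoxic one, which held for 34.0% of all genes tested. In 1, Axl, every hypoxic sample lay above, as in 34.9% of all genes. Marco and Cd163 passed the filter in all 3 samples at 21% O2 but not in all 3 at 1% O2, so their entry into the test leaned on the condition where they were high. Marco is 1 of the 26 called, and 25 were called beside it. In bulk RNA, fewer cells of a type and less RNA of its genes per cell cannot be told apart.

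**Figure D1:**
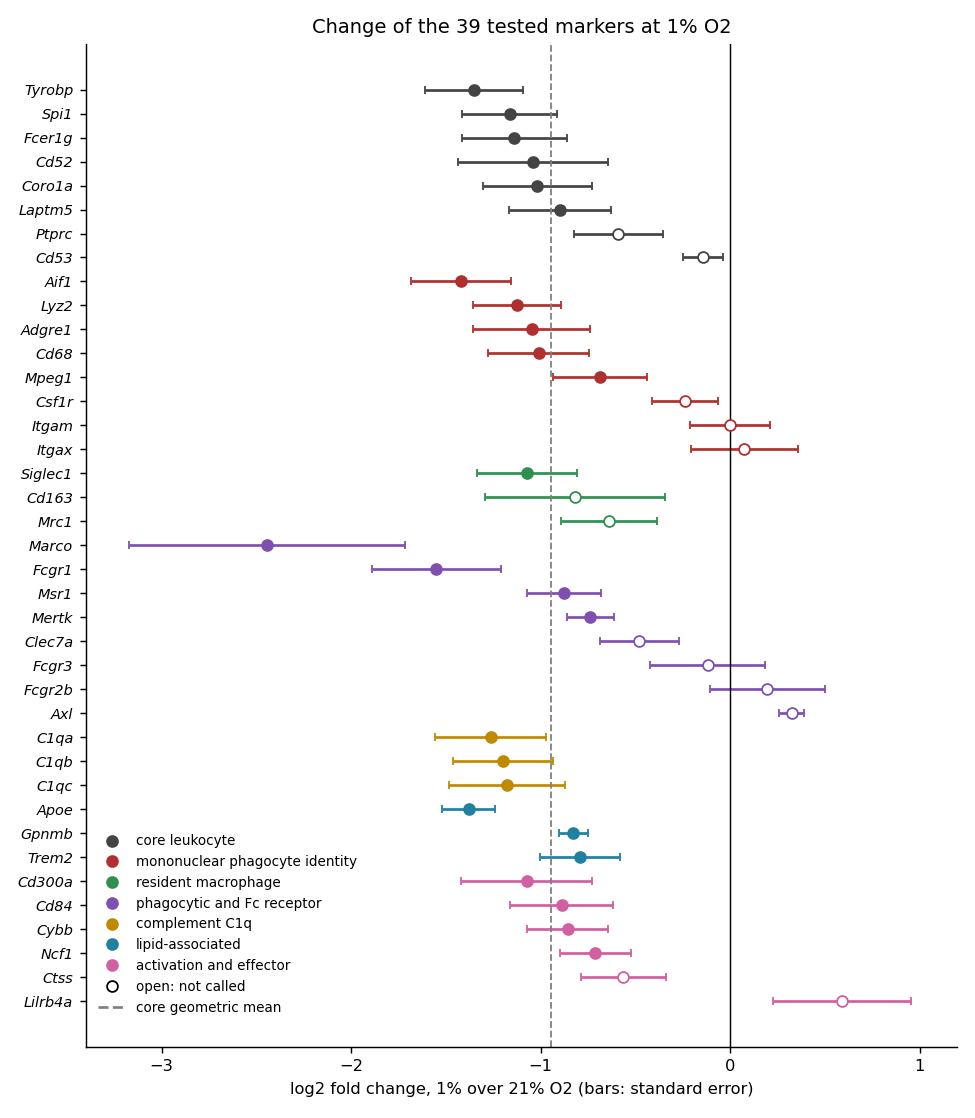
Log2 fold change (1% over 21% O2, edgeR) of the 39 tested markers on the x axis, with standard errors as bars, ordered by role and then by value. Filled points were called, open points were not, and the dashed line is the change of the geometric mean of the 8 core leukocyte genes, -0.94. The 26 called markers all lie left of 0, and Itgam, Itgax, Fcgr2b, Axl and Lilrb4a lie at or right of 0.

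Set on a scale per kilobase of exon (RPKM), so that genes could be compared, mean levels at 21% O2 ran from 0.0116 for Ccr2 to 2348 for Apoe. Apoe, the lipoprotein component that fibroblasts also make, stood highest, followed by Lyz2, lysozyme M, at 684, Gpnmb at 129.9 and C1qb at 89.97. Among core leukocyte genes the mean RPKM was 28.6 for Tyrobp and 0.605 for Ptprc, which encodes CD45. At the low end, Timd4, a phosphatidylserine receptor of resident macrophages, had 0, 1 and 1 counts at 21% O2 and 0, 2 and 1 at 1% O2. Ccr2, the chemokine receptor of inflammatory monocytes, had 1, 2 and 3 counts at 21% O2 and 0, 0 and 0 at 1% O2. Cx3cr1, the fractalkine receptor, had 2, 2 and 2 counts at 21% O2 and 4, 7 and 4 at 1% O2. These last 3 members lay too near the limit of 3 counts for a fold or a test.

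**Figure D2:**
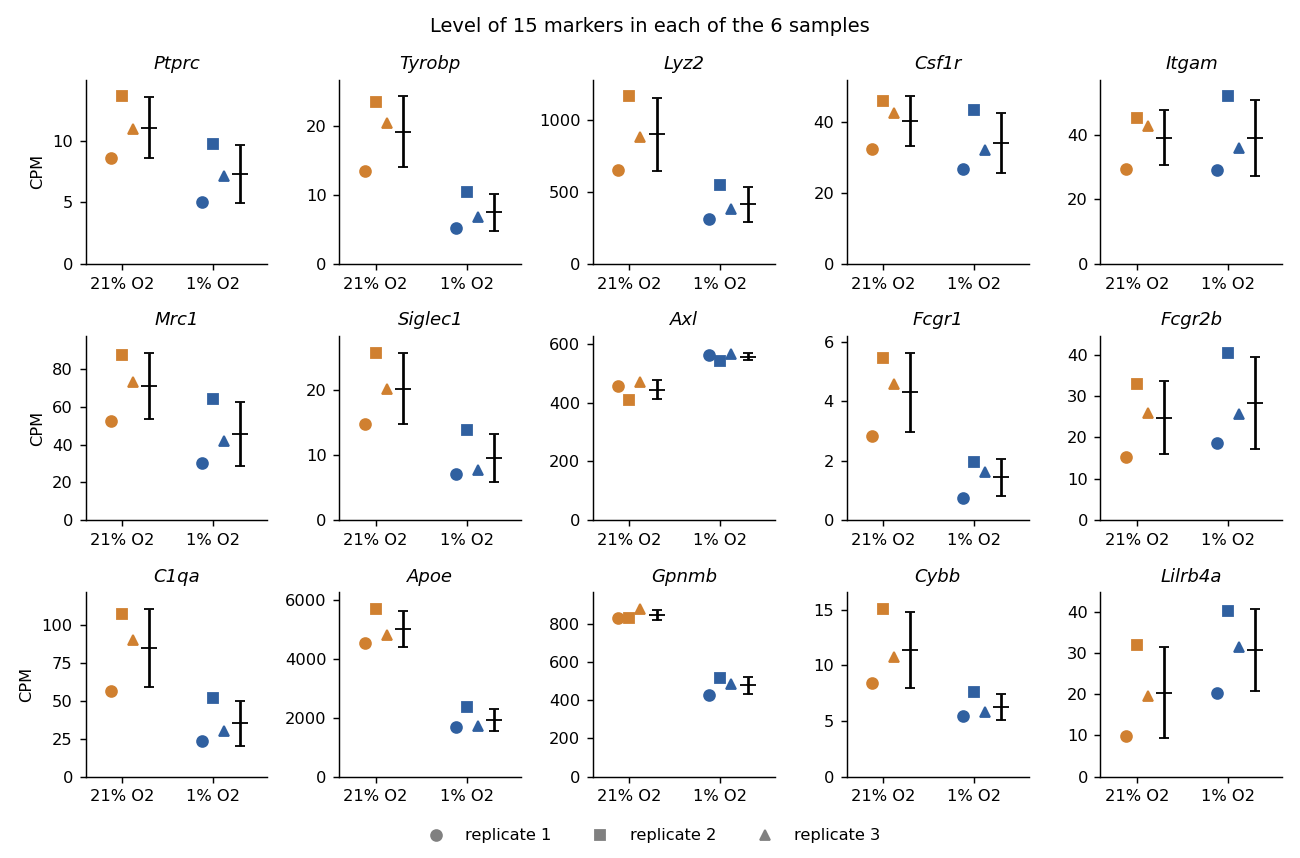
CPM (y axes, from 0) of 15 of the 42 markers in the 3 samples at 21% O2 (orange) and the 3 at 1% O2 (blue), with marker shapes for replicates 1, 2 and 3 and black bars for the mean ± SD. Replicate 2 is highest and replicate 1 lowest in both conditions in most panels, but not in Axl, which lies higher at 1% O2, or Gpnmb, whose samples lie close together within a condition.

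The core leukocyte genes, which are known from white blood cells and not from fibroblasts, fell in 6 of 8 cases (median log2 fold change -1.03). Not all white blood cells share them. Spi1, Tyrobp and Fcer1g are known foremost from myeloid cells, so the core is not independent of the macrophage markers set against it below. Tyrobp, the signaling adaptor of TREM2 and other receptors, had 13.4, 23.5 and 20.4 CPM at 21% O2 and 5.18, 10.3 and 6.79 CPM at 1% O2, with every hypoxic sample below every normoxic one. Its mean was 19.1 ± 5.13 CPM at 21% O2 and 7.44 ± 2.64 CPM at 1% O2 (SD, n = 3 each). On the log2 scale it changed by -1.35 ± 0.26 (SE, edgeR adjusted p = 0.00156). Fcer1g, the common chain of activating Fc receptors, had 10.6, 19.2 and 17.4 CPM at 21% O2 and 4.79, 10.1 and 6.41 CPM at 1% O2 (-1.14 ± 0.28, adjusted p = 0.00591), and the conditions did not overlap here either. Spi1, which encodes PU.1, had 9.55, 17.04 and 12.3 CPM at 21% O2 and 4.08, 7.59 and 5.59 CPM at 1% O2 (-1.16 ± 0.25, adjusted p = 0.003005), again without overlap. Laptm5, a lysosomal membrane protein of blood cells, Coro1a, an actin-binding coronin, and Cd52, a small surface glycopeptide, were called with log2 fold changes of -0.90, -1.02 and -1.04. In each of them hypoxic replicate 2 lay above normoxic replicate 1. Coro1a lost its call without hypoxic replicate 3, Laptm5 without normoxic replicate 3 or hypoxic replicates 1 or 3, and Cd52 without any of these 3 or normoxic replicate 2. Ptprc had 8.62, 13.6 and 10.99 CPM at 21% O2 and 5.07, 9.73 and 7.17 CPM at 1% O2, and missed the threshold narrowly (-0.59 ± 0.23, adjusted p = 0.0514). Cd53, a tetraspanin of leukocytes, had 20.3, 23.2 and 21.5 CPM at 21% O2 and 17.9, 22.8 and 18.1 CPM at 1% O2. The conditions overlapped (-0.14 ± 0.11, adjusted p = 0.256). Its highest and lowest samples within a condition differed by 1.14-fold and 1.27-fold, against 1.58-fold and 1.92-fold for Ptprc.

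Of the identity genes of mononuclear phagocytes, 5 of 8 tested fell and 3 did not pass the test. Lyz2 had 653, 1164 and 883 CPM at 21% O2 and 315, 546 and 378 CPM at 1% O2, without overlap. It fell to 0.459 of its normoxic level (log2 fold change -1.12 ± 0.23, adjusted p = 0.00241). Aif1, the calcium-binding protein IBA1, fell from 1.35, 2.16 and 1.66 to 0.589, 0.6701 and 0.66 CPM (-1.42 ± 0.26, adjusted p = 0.001297). Its 3 hypoxic samples lay close together. Adgre1, an adhesion receptor that defines mouse macrophages, Cd68, a glycoprotein of late endosomes, and Mpeg1, the pore-forming perforin-2, fell with log2 values of -1.05, -1.01 and -0.69. Each had hypoxic replicate 2 above normoxic replicate 1. Adgre1 lost its call without hypoxic replicate 3. Mpeg1 lost its call in 4 of the 6 fits that left out 1 sample, without normoxic replicates 2 or 3 or hypoxic replicates 1 or 3. Csf1r, the receptor through which macrophages survive, had 32.6, 45.96 and 42.6 CPM at 21% O2 and 26.8, 43.6 and 32.1 CPM at 1% O2, a difference that did not pass the test (-0.24 ± 0.18, adjusted p = 0.264). The integrin chains Itgam and Itgax, which pair with the same beta chain to form complement receptors, were not called. Itgam had 29.5, 45.3 and 42.8 CPM at 21% O2 and 29.1, 51.95 and 36.02 CPM at 1% O2, and the conditions overlapped almost completely (-0.0015 ± 0.21, adjusted p = 0.995). Itgax, with a mean of 0.168 RPKM at 21% O2 against 7.798 for Itgam, had 0.847, 0.797 and 0.771 CPM at 21% O2 and 0.589, 1.02 and 0.911 CPM at 1% O2 (0.076 ± 0.28, adjusted p = 0.828). Of the exonic bases of Itgam, 68.7% are shared on the same strand with the annotated gene Gm49368, which held 0 to 23 counts per sample. Likewise 15.1% of those of Csf1r face exons of Hmgxb3 on the other strand.

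Among markers of resident macrophages 1 of 3 tested fell. Siglec1, the sialic acid receptor CD169 of tissue macrophages, had 14.8, 25.7 and 20.1 CPM at 21% O2 and 7.11, 13.8 and 7.7 CPM at 1% O2 (-1.07 ± 0.27, adjusted p = 0.00638), with the lowest normoxic sample only just above the highest hypoxic one. Mrc1, the mannose receptor, had 52.8, 87.5 and 73.4 CPM at 21% O2 and 30.5, 64.1 and 42.2 CPM at 1% O2, a log2 value of -0.64 ± 0.25 at an adjusted p of 0.0508, just above the threshold. Cd163, the scavenger receptor for hemoglobin, was scarce and uneven at 0.808, 1.02 and 1.298 CPM at 21% O2 and 0.236, 1.08 and 0.409 CPM at 1% O2 (-0.82 ± 0.48, adjusted p = 0.162), and hypoxic replicate 2 lay within the normoxic range.

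The phagocytic and Fc receptors ranged most widely, with 4 of 8 called lower and log2 fold changes from -2.44 to 0.32. Marco and Msr1 are class A scavenger receptors. Marco had 26, 76 and 49 counts at 21% O2 and 2, 28 and 2 at 1% O2. Hypoxic replicates 1 and 3 lay below 3 counts, and replicate 2 did not. Its log2 fold change was -2.44 ± 0.73 (adjusted p = 0.0161). With 1 sample left out it ran from -4.72 to -1.93, and the call was lost without hypoxic replicate 3 and by DESeq2. Because 3 normoxic samples but only 1 hypoxic sample lay above the cutoff of the filter, these values are a description and no independent support for a fall. Without the filter Marco was called as well. Msr1 had 22.6, 33.5 and 30.8 CPM at 21% O2 and 12.3, 20.6 and 14.3 CPM at 1% O2 (-0.88 ± 0.20, adjusted p = 0.00371), without overlap. Mertk and Axl are receptor tyrosine kinases that recognize dying cells through the bridging protein GAS6, and Axl is also known from fibroblasts. Mertk fell from 9.39, 10.3 and 8.97 to 4.99, 6.35 and 5.78 CPM (-0.74 ± 0.12, adjusted p = 0.000719), with little spread inside either condition. Axl stood at 456, 409 and 469.7 CPM at 21% O2 and 563, 542 and 566 CPM at 1% O2, each hypoxic sample above each normoxic one. This 1.25-fold difference (log2 0.32 ± 0.07, adjusted p = 0.00218) lay below the 1.5-fold threshold. Of the Fc receptors for IgG, 1 of 3 was called, and the differences between them were not tested in this fit. Fcgr1, which binds monomeric IgG with high affinity, fell from 2.85, 5.47 and 4.58 to 0.746, 1.95 and 1.63 CPM (-1.55 ± 0.34, adjusted p = 0.00339). Fcgr3, the activating receptor of low affinity, had 16.4, 31.7 and 24.9 CPM at 21% O2 and 14.9, 33.5 and 18.6 CPM at 1% O2 (-0.12 ± 0.30, adjusted p = 0.7503). Fcgr2b, the inhibitory receptor, had 15.3, 32.9 and 26.01 CPM at 21% O2 and 18.8, 40.4 and 25.6 CPM at 1% O2 (0.20 ± 0.30, adjusted p = 0.594). In Fcgr2b and Fcgr3 the highest replicate of a condition was 1.94-fold to 2.25-fold above the lowest, which was wider than the difference between conditions. These 2 genes are near-identical in part, and RSEM divides reads between them by an estimate. The summed counts of both and the related Fcgr4 gave a log2 fold change of 0.042 (adjusted p = 0.910). Clec7a, the beta-glucan receptor dectin-1, had 1.69, 2.13 and 2.15 CPM at 21% O2 and 1.26, 1.47 and 1.54 CPM at 1% O2 (-0.48 ± 0.21, adjusted p = 0.0694), and did not overlap between conditions although it was not called.

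All 3 C1q genes fell, and differences between their falls were not tested. The genes lie side by side on chromosome 4 of GRCm38, C1qb at chr4:136880129-136886187, C1qc at chr4:136889804-136893065 and C1qa at chr4:136895917-136898803, all on the minus strand. C1qa had 56.7, 108 and 90.4 CPM at 21% O2 and 23.4, 51.98 and 30.2 CPM at 1% O2. C1qb had 65.6, 129.7 and 98.3 CPM at 21% O2 and 30.98, 58.3 and 38.4 CPM at 1% O2. For C1qc the values were 47.7, 93.4 and 71.2 CPM at 21% O2 and 20.1, 46.7 and 26.7 CPM at 1% O2. In each of them replicate 2 was highest and replicate 1 lowest in both conditions, and the conditions did not overlap, though hypoxic replicate 2 came near normoxic replicate 1. The log2 fold changes were -1.26 ± 0.29, -1.20 ± 0.27 and -1.18 ± 0.31, with adjusted p-values of 0.00462, 0.00353 and 0.00831. All 3 calls were kept in each of the 6 fits that left out 1 sample.

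The 3 lipid-associated genes fell with different spreads. Apoe had 4539, 5701 and 4823 CPM at 21% O2 and 1703, 2355 and 1732 CPM at 1% O2, which was a fall to 0.384 of the normoxic level (-1.38 ± 0.14, adjusted p = 3.29e-05). Gpnmb, a transmembrane glycoprotein of lysosome-rich cells, had 831, 832 and 876 CPM at 21% O2 and 428, 516 and 486 CPM at 1% O2 (-0.83 ± 0.08, adjusted p = 1.83e-05), so that its normoxic samples lay within 1.05-fold of each other. Trem2, the lipid receptor that signals through TYROBP, had 16.7, 28.5 and 19.9 CPM at 21% O2 and 10.3, 15.96 and 11.3 CPM at 1% O2 (-0.79 ± 0.21, adjusted p = 0.00955), with replicates of a condition up to 1.704-fold apart. None of these 3 genes overlapped between conditions, and Trem2 alone lost its call in a fit that left out 1 sample, normoxic replicate 2.

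Of the activation and effector genes 4 of 6 fell. Cybb and Ncf1 encode the membrane and a cytosolic subunit of the phagocyte NADPH oxidase. Cybb had 8.39, 15.1 and 10.8 CPM at 21% O2 and 5.42, 7.59 and 5.81 CPM at 1% O2 (-0.86 ± 0.21, adjusted p = 0.00677). Ncf1 had 16.1, 25.96 and 20.7 CPM at 21% O2 and 10.96, 15.8 and 11.4 CPM at 1% O2 (-0.71 ± 0.19, adjusted p = 0.00891). Neither overlapped between conditions, and 11.1% of the exonic bases of Ncf1 face exons of Gtf2ird2 on the other strand. Ncf1 lost its call without normoxic replicate 2. Cd84, an adhesion receptor of the SLAM family, and Cd300a, an inhibitory receptor for phosphatidylserine, were called at log2 values of -0.89 and -1.07. Both lost the call in the same 3 fits, without normoxic replicate 2, hypoxic replicate 1 or hypoxic replicate 3. Ctss, the lysosomal protease cathepsin S that trims the class II invariant chain, had 37.96, 61.7 and 56.4 CPM at 21% O2 and 25.7, 46.9 and 32.6 CPM at 1% O2 and missed the threshold (-0.56 ± 0.22, adjusted p = 0.0516). Lilrb4a, an inhibitory immunoglobulin-like receptor, had 9.89, 31.8 and 19.5 CPM at 21% O2 and 20.4, 40.3 and 31.3 CPM at 1% O2. This was the highest log2 fold change of the 39 tested members (0.59 ± 0.36, adjusted p = 0.182), but its replicates differed up to 3.22-fold within a condition and it was not called. It shares 35.3% of its exonic bases on the same strand with Gm49339, which fell (log2 -0.69, adjusted p = 0.0386). The summed counts of Lilrb4a and Gm49339 gave -0.043 (adjusted p = 0.906).

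Whether the markers moved by 1 factor was read first from the samples and then by a test. In 32 of the 39 tested members (82.1%) replicate 2 was highest and replicate 1 lowest in both conditions, an order found in 929 of the 16168 other genes tested (5.75%). The geometric mean of the 8 core leukocyte genes, called the core below, was 10.9, 19.1 and 15.8 CPM at 21% O2 and 5.85, 11.2 and 7.09 CPM at 1% O2, a log2 ratio of -0.94 or 0.52-fold. Hypoxic replicate 2 thus lay above normoxic replicate 1, and within a condition the core varied 1.75-fold and 1.91-fold. Each member outside the core was then divided by the core of its own sample. The SD within a condition was taken on the log2 scale and pooled over both conditions. Over the 31 tested members outside the core its median was 0.454 before this division and 0.144 after it. It became smaller in 24 of the 31 (77.4%). Over 16021 other genes with counts in every sample the median SD went from 0.125 to 0.459, and it became smaller in 7.77%. The smallest SD after the division was that of Mpeg1, which went from 0.454 to 0.0287. In 7 members the SD did not become smaller, namely Axl, Gpnmb, Mertk, Clec7a, Apoe, Itgax and Aif1. Of these, Axl went from 0.0786 to 0.495 and Gpnmb from 0.102 to 0.381, and so varied little between replicates in which the core varied much. Within the core itself, Cd53 went from 0.154 to 0.305.

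**Figure D3:**
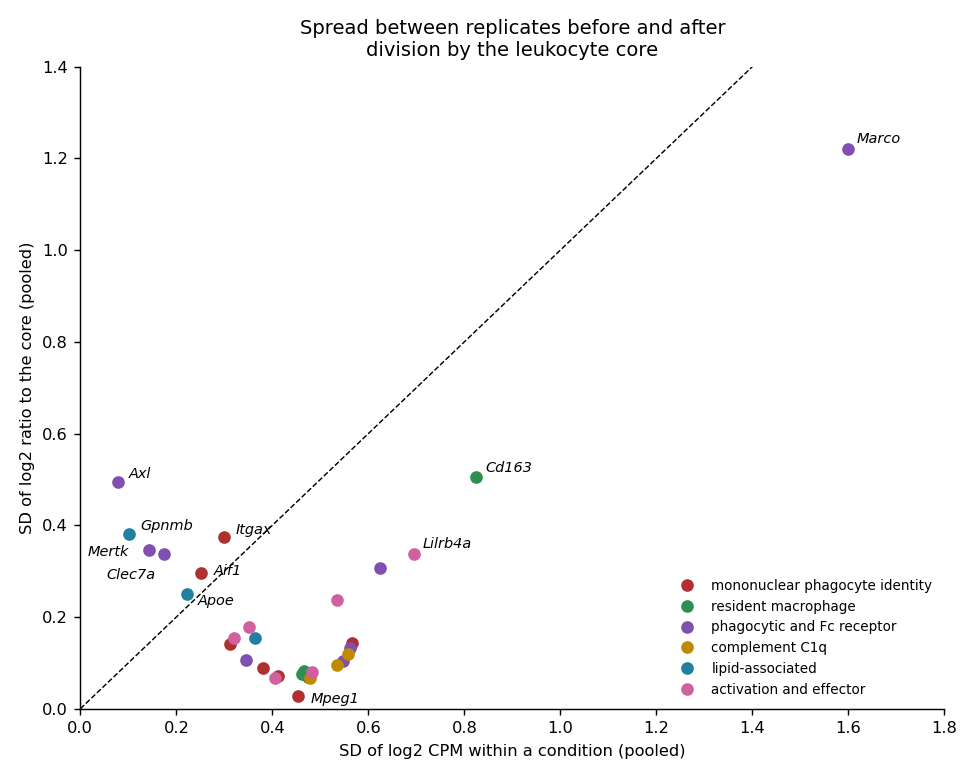
SD of log2 CPM within a condition (x axis, pooled over the 2 conditions) against the SD of the log2 ratio to the core (y axis) for the 31 tested markers outside the core, 1 point each, colored by role. Points below the dashed line of equality, 24 of 31, became less variable after division by the core, and the 7 above it include Axl and Gpnmb.

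For the test, libraries were scaled by the core in place of TMM and edgeR was fitted to all genes again. In this fit a log2 value of 0 means a change by the same factor as the core. Of the 31 members outside the core, 4 were called higher and 1 lower against it, and 22 lay between -0.5 and 0.5, with a median of 0.10. Over all genes 52.7% were called, 50.6% higher and 2.04% lower, with a median of 0.95. Standard errors were wide, 0.39 to 0.52, so that a member not called is not shown to have moved by the core's factor. The fit estimated dispersion over all genes. After division by the core, the median SD was 0.459 for the other genes and 0.144 for these members. The standard errors here and below are therefore not the spread of a member's own ratios.

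**Figure D4:**
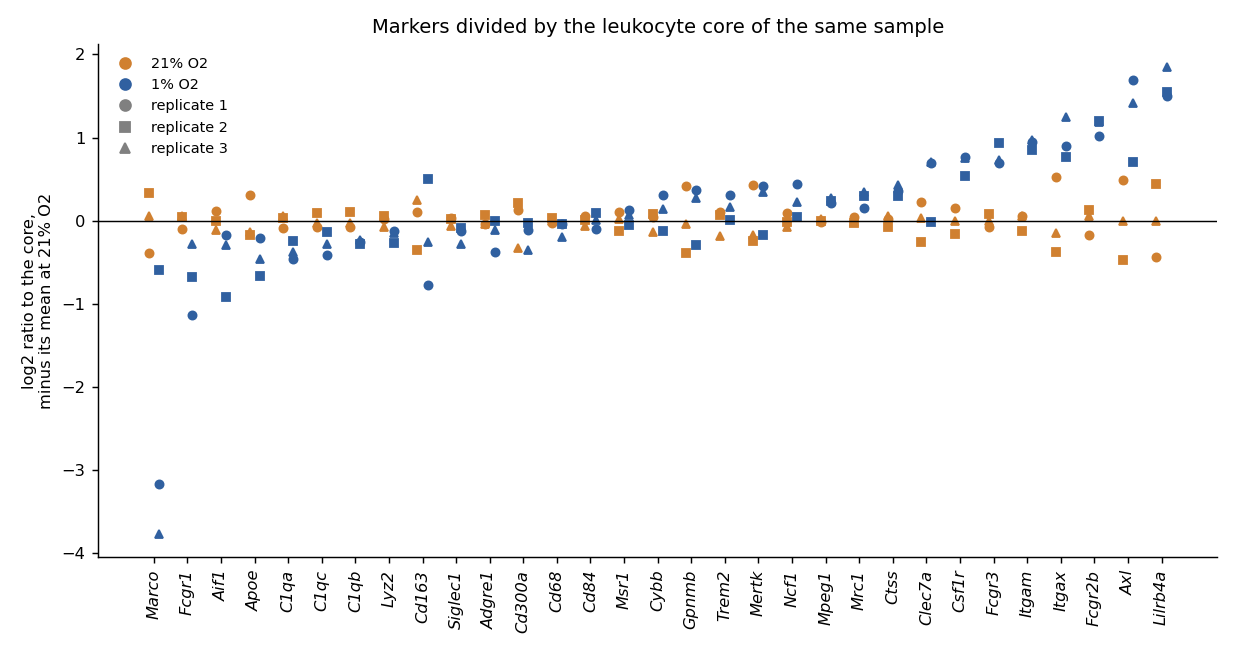
Log2 ratio of each of the 31 markers to the core of the same sample (y axis), minus its mean at 21% O2, for normoxic (orange) and hypoxic (blue) samples, with shapes for replicates and genes in order of their mean shift. Over all 6 samples Cd68, Cd84 and Msr1 lie nearest to 0, Itgam, Itgax, Fcgr2b, Axl and Lilrb4a stand at the right, and Marco at the left with hypoxic replicates 1 and 3 below -3.

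Lilrb4a stood at 0.905, 1.67 and 1.23 times the core at 21% O2 and 3.48, 3.61 and 4.42 times at 1% O2, a log2 change against the core of 1.59 ± 0.41 (adjusted p = 0.000631). It was the only member called in each of the 6 fits that left out 1 sample. Summed with Gm49339 it gave 0.92 (adjusted p = 0.0515) and was not called, and with the near-identical Lilr4b added as well it gave 1.03 (adjusted p = 0.0333) and was. Fcgr2b stood at 1.402, 1.73 and 1.64 and then 3.21, 3.62 and 3.61 times the core (1.13 ± 0.41, adjusted p = 0.0153). The sum of Fcgr2b, Fcgr3 and Fcgr4 gave 0.96 (adjusted p = 0.0421). Axl had ratios of 41.7, 21.4 and 29.7 and 96.2, 48.6 and 79.7 (1.27 ± 0.43, adjusted p = 0.00929). Itgam had 2.698, 2.37 and 2.701 and 4.98, 4.66 and 5.08 (0.92 ± 0.41, adjusted p = 0.0489). In all 4 the hypoxic ratios lay above the normoxic ones. Marco, for which the same limit of the filter holds, was lower against the core, with ratios of 0.0916, 0.151 and 0.126 and 0.0134, 0.0801 and 0.00886 (-1.67 ± 0.52, adjusted p = 0.004696). The calls depended on single samples. With all samples 5 members were called, 2 without normoxic replicate 2, normoxic replicate 3 or hypoxic replicate 1, and 1 without hypoxic replicate 3. Itgam was called in 1 of these 6 fits, Axl in 2, Fcgr2b in 3 and Marco in 4. Itgam was also not called with the summed core counts, with a core lacking Tyrobp and Fcer1g, or with limma.

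The ratios to the core also ranked members that the test did not separate. Hypoxic and normoxic ratios did not overlap in 10 members that were higher at 1% O2 and 10 that were lower. Over all genes tested 46.9% were higher and 2.98% lower without overlap. On the lower side stood C1qa, C1qb, C1qc, Lyz2, Cd68, Aif1, Siglec1, Fcgr1, Apoe and Marco. C1qa, for example, went from 5.19, 5.64 and 5.71 to 3.998, 4.66 and 4.26 times the core (-0.36 ± 0.41, adjusted p = 0.443), and Lyz2 from 59.7, 61.02 and 55.8 to 53.8, 48.96 and 53.3 (-0.18 ± 0.42, adjusted p = 0.712). On the higher side, beside the 4 called members, were Csf1r, Fcgr3, Mpeg1, Mrc1, Ctss and Itgax. Csf1r went from 2.98, 2.41 and 2.69 to 4.58, 3.91 and 4.52 times the core (0.69 ± 0.41, adjusted p = 0.135) and Fcgr3 from 1.497, 1.66 and 1.57 to 2.54, 3.001 and 2.62 (0.79 ± 0.40, adjusted p = 0.0827). Members whose ratios overlapped included Cd84 (0.0042 ± 0.39), Msr1 (0.047 ± 0.40), Trem2 (0.16 ± 0.40), Cybb (0.11 ± 0.40) and Mertk (0.18 ± 0.40).

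Among 11344 genes with a mean of at least 5 CPM, likeness to the core was read from the 6 centered log2 CPM values. In the first 4 places were 3 members, Laptm5, which is itself in the core, Cd84 and Cd68. Among the closest genes outside the members were Lcp1, Ms4a6d, Clec4d, Hcls1, Stab1, Tlr13, Fmnl1, Fyb and Pik3ap1, at root mean square distances of 0.065 to 0.104 on the log2 scale over the 6 samples. At the far end, Lilrb4a ranked 9712, Axl 8615 and Fcgr2b 4988.

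Genes of the pathways these members work in were read from lists that were likewise written with earlier results known. Of 21 tested genes of leukocyte signaling and cytoskeleton, 15 were called lower (median log2 fold change -0.83). Ptpn6, the phosphatase SHP-1, was among them (-1.56 ± 0.24, adjusted p = 0.000392), as was Vav1, an exchange factor for Rac (-1.17 ± 0.27, adjusted p = 0.00402). So were Plcg2, a phospholipase (-0.89 ± 0.15, adjusted p = 0.000684), and the kinase Lyn (-0.60 ± 0.09, adjusted p = 0.000339). In a separate list of partners of Cybb and Ncf1 in the NADPH oxidase, the GTPase Rac2 fell (-1.27 ± 0.29, adjusted p = 0.00405), and Cyba (-0.23 ± 0.05, adjusted p = 0.00403) and Ncf4 (-0.38 ± 0.25, adjusted p = 0.212) were not called. Of 10 tested myeloid transcription factors beside Spi1, 6 were lower and 1 higher. Cebpa, which fat cells and hepatocytes also use, had 284, 426 and 263 CPM at 21% O2 and 66.5, 74.1 and 58.96 CPM at 1% O2 (-2.29 ± 0.17, adjusted p = 6.18e-06) and was called lower against the core (-1.31, adjusted p = 0.00829). Maf had 235, 230.3 and 238 CPM at 21% O2 and 163, 152 and 149 CPM at 1% O2 (-0.60 ± 0.05, adjusted p = 1.69e-05). Its replicates lay close together, and Runx1 rose (0.67 ± 0.09, adjusted p = 0.0001498). Of 25 other tested macrophage markers 14 were called lower (median -0.87). Ccl9, a chemokine, fell from 87.3, 132 and 97.4 to 13.2, 24.5 and 15.2 CPM (-2.58 ± 0.23, adjusted p = 1.44e-05) and further than the core (-1.68, adjusted p = 0.000476). So did the membrane protein Ms4a6c (-1.95 ± 0.39, adjusted p = 0.00201, against the core -1.07, adjusted p = 0.0333). Clec12a, an inhibitory lectin (-1.54 ± 0.19, adjusted p = 0.000121), and Pld4, an endolysosomal nuclease (-1.34 ± 0.27, adjusted p = 0.00207), fell without being called against the core.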

How the data were processed

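Poly(A) RNA of 6 samples was measured. The authors trimmed reads, mapped them to GRCm38 with STAR 2.6.1b and estimated counts per gene with RSEM 1.3.1. They deposited these expected counts, not normalized, for 55426 features (0 values had a fraction), among them 5 transgene features at 0 counts. The annotation release and strand setting are not given in the sources used here. GENCODE M21 held 55240 of the identifiers.

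Counts were analysed with edgeR 4.0.16 (limma 3.58.1, R 4.3.3): filterByExpr, TMM, quasi-likelihood F test, Benjamini-Hochberg adjustment over 16207 genes, and calls at a fold beyond 1.5 and adjusted p under 0.05, after the study's methods. A standard error is the log2 fold change divided by the square root of F. A second fit scaled libraries by the geometric mean of 8 core genes. RPKM used the union of exons. Members were all named, and of other lists at most 4 called genes with the lowest p and a mean of at least 1 CPM. Krt19, Gm49339, Gm49368, Lilr4b, Fcgr4, Cyba, Ncf4, Cd74, H2-Aa, H2-Eb1, Ciita, Pros1 and Mfge8 were named after their values were seen, and a few genes that the rule picks are not reported here. The members and lists were chosen with earlier results of these data known. Replicates of a condition differed by chi-squares of 6.1 to 24 per degree of freedom. Reads carried no molecular identifiers, so limits from counts cover counting error only. Alternatives were a replicate block, other scalings, filters, thresholds and cores, DESeq2 1.42.0, limma-voom and 1 sample left out. Chosen after seeing the data were GC and length corrections and sums of overlapping, near-identical or related genes.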

Additional observations from a re-analysis of the deposited data

How the results depend on the processing

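The median log2 fold change of the members kept its direction under every alternative in which it was taken, from -1.24 to -0.71. The core was taken again only with the other cores, RLE or upper-quartile scaling and 1 sample left out. In these its fall kept its direction, from -1.21 to -0.74. Leaving out 1 sample gave 18 to 30 members called lower, 16 of the 26 calls being kept in all 6 such fits, and 0 to 1 called higher, Lilrb4a without normoxic replicate 2. A member was called higher, 1 each, with the replicate block in edgeR or DESeq2 (Lilrb4a) and without a fold threshold (Axl), and a fold threshold of 2 left 17 called, all 17 lower. Mrc1 and Ptprc, not called above, were called with upper-quartile scaling, without the filter, by limma-voom and with the replicate block, and Ctss with the first 2 of these. DESeq2 called Ptprc and lost Marco and Mpeg1. The GC and length corrections called Ptprc, the latter also Mrc1, and Cd52 was not called with the 1 CPM filter or the GC and length corrections. With 1 sample left out, 1 to 6 members were called against the core, 1 to 5 higher and 0 to 1 lower.

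Replicate numbers are shared between conditions, and no source states a pairing. Deviations from the group means of samples with the same number correlated at 0.142, 0.139 and 0.038 over 16207 genes, and every sample correlated best with its own number, which is a hint from the data only. With the number as a block 29 members were called in place of 26, 28 of them lower, and 9 in place of 5 against the core, 7 higher and 2 lower, adding Csf1r, Fcgr1, Fcgr3 and Itgax.

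Some directions turned, and the cause was not tested. Itgam was 0.0013 with RLE scaling, 0.017 with a 1 CPM filter, 0.022 with GC correction and -0.27 to 0.17 with 1 sample left out. Fcgr3 was 0.042 when summed with Fcgr2b and Fcgr4. With 1 sample left out Fcgr3 was -0.54 to 0.12, Fcgr2b -0.16 to 0.46 and Itgax -0.089 to 0.26. Lilrb4a, at 0.59 above, was -0.043 when summed with Gm49339 and 0.057 with Lilr4b added. Against the core, the summed core counts gave -0.0405 for Msr1 and -0.0802 for Cd84, and a core without Tyrobp and Fcer1g gave -0.064, -0.10 and, for Gpnmb, -0.0081. With 1 sample left out these were -0.015 to 0.10 for Msr1, -0.043 to 0.051 for Cd84, -0.069 to 0.34 for Gpnmb and -0.47 to 0.18 for Cd163.

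With 3 samples a condition and low counts, differences in Timd4, Ccr2 and Cx3cr1 were not detectable at this depth, and counting limits leave out library preparation. Reads of antisense partners cannot be told apart where the strand setting is not given in the sources used here.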

Other observations

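Other gene groups that meet macrophages in tissue moved in several directions. Of 12 tested genes of macrophage activation, 6 were higher at 1% O2 and 1 lower (median log2 fold change 0.63). Nos2, the inducible nitric oxide synthase, went from 0.385, 0.493 and 0.487 CPM at 21% O2 to 328, 306 and 312 CPM at 1% O2. The class II chain H2-Ab1 had 3.58, 4.14 and 4.95 CPM at 21% O2 and 129, 132 and 125 CPM at 1% O2 (4.93 ± 0.10, adjusted p = 7.32e-09). Cd74, the invariant chain of class II, was higher as well (0.67 ± 0.25, adjusted p = 0.0422). Of its list's other class II genes, H2-Eb1 was not called (0.59 ± 0.34, adjusted p = 0.163), and H2-Aa, the partner chain, and Ciita, the class II transactivator, had at most 2 and 10 counts in a sample. Cd40, a costimulatory receptor, had 2.93, 3.23 and 3.21 CPM at 21% O2 and 5.42, 7.12 and 5.81 CPM at 1% O2 (0.97 ± 0.15, adjusted p = 0.000497). Bulk RNA does not show which cells held these transcripts.

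Of 5 tested genes of the colony-stimulating factors and their receptors, 3 rose, namely Csf2ra (0.70 ± 0.13, adjusted p = 0.00155), Csf2rb2 (0.88 ± 0.18, adjusted p = 0.00242) and Il34, another ligand of the CSF1 receptor (0.64 ± 0.16, adjusted p = 0.00667). Of 3 bridging ligands of phagocytosis 1 was called, Gas6, a ligand of AXL and MERTK, which had 1303, 1571 and 1362 CPM at 21% O2 and 282, 287 and 265 CPM at 1% O2 (-2.34 ± 0.08, adjusted p = 7.98e-08) and fell further than the core (-1.37, adjusted p = 0.00505). The other two, Pros1 (0.039 ± 0.06, adjusted p = 0.595) and Mfge8 (-0.086 ± 0.06, adjusted p = 0.249), were not called. Of 19 genes of lysosomes and lipid handling 9 were called lower, among them the proteases Lgmn (-0.87 ± 0.06, adjusted p = 3.84e-06) and Ctsb (-0.76 ± 0.07, adjusted p = 1.43e-05), Lamp1 (-0.78 ± 0.06, adjusted p = 8.11e-06) and the fatty acid carrier Fabp4, which had 432, 1076 and 409.9 CPM at 21% O2 and 49.8, 62.5 and 50.8 CPM at 1% O2 (-3.55 ± 0.36, adjusted p = 3.34e-05). At 21% O2 Lgmn had 423, 416 and 419 CPM, Ctsb 4084, 3952 and 4213 CPM, and Lamp1 1359, 1275 and 1299 CPM. These genes did not have the replicate order of the core there. Which cells held the transcripts of this paragraph, Gas6 included, was not tested.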
